A study of Mus musculus with 59 samples.

Results

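The genes described here make cholesterol, sense it and move it into and out of the liver cell. The group holds 31 named genes: 19 enzymes of synthesis, 4 regulators and 8 genes of transport, efflux and esterification. A gene was measured where at least 1 probe set carried its symbol alone, and the brightest such probe set, by its mean over all 59 arrays, stood for the gene. This gave values for 29 of the 31, among 18193 genes with such a probe set on the array: 18 enzymes, all 4 regulators and 7 transport genes. Acat2 and Soat2 were not analysed here.

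The series measured total liver RNA of male C57BL/6 mice on 59 one-colour arrays, 1 per mouse sample, in 12 groups. All mice were 6 weeks old at the start and ate their diet for 2 weeks before treatment. In the 5-week experiment the diet was LRD-5001, a grain-based laboratory chow, or AIN-76A, a purified diet. On each diet a group received sodium arsenite at 10 ppb in the drinking water, at 100 ppb in the drinking water or at 10 ppb in the food, and a control group received none. Each of these 8 groups had 5 arrays, except for 100 ppb in water on AIN-76A, which had 4. In the 8-hour experiment all mice ate AIN-76A and received 1 intraperitoneal injection: dexamethasone at 1 mg/kg with sodium arsenite at 1 mg/kg, dexamethasone alone, arsenite alone, or saline (5 arrays each). Dexamethasone is a synthetic glucocorticoid. Only the word "biological" in the replicate labels says that samples came from separate mice, so the p-values rest on the spread among these samples, which may be technical. Arrays are named below by their group and the replicate letter of their label.

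Liver cells build cholesterol from acetyl-CoA through mevalonate, isoprenoid units, squalene and lanosterol. When membrane sterol is low, SCAP carries the transcription factor SREBP2 (the product of Srebf2) out of the endoplasmic reticulum, and the cleaved factor raises transcription of nearly all of the synthesis enzymes. When sterol is high, the INSIG proteins hold SCAP back. Excess sterol leaves the hepatocyte for bile through the paired half-transporters ABCG5 and ABCG8, and for plasma through ABCA1, or is turned into bile acids.

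The promoters of 7 members are shown because the results below turn on these genes: enzymes that differed together between the diets (Hmgcs1, Mvk, Idi1, Msmo1), an enzyme that did not follow them in the average over exposures (Sc5d), a called regulator (Insig2) and a called efflux gene (Abcg5). Each window runs from 250 bases before to 50 bases after a start, the outermost in the table for that gene, 5′ to 3′ on the gene's own strand, and comes from RefSeq (GRCm38.p6). Capitals mark the CCAAT box, read as CCAAT or, on the other strand, ATTGG, and a core of the sterol regulatory element, TCACNCCAC. The windows are chr13:119690101-119690400 (plus strand) for Hmgcs1, chr5:114444019-114444318 (plus strand) for Mvk, chr13:8885356-8885655 (plus strand) for Idi1, chr8:64733529-64733828 (minus strand) for Msmo1, chr9:42264251-42264550 (minus strand) for Sc5d, chr1:121332540-121332839 (minus strand) for Insig2 and chr17:84682962-84683261 (minus strand) for Abcg5. For Mvk and Insig2 this start lies within the gene, downstream of the 5′ end of its annotated span.
Hmgcs1: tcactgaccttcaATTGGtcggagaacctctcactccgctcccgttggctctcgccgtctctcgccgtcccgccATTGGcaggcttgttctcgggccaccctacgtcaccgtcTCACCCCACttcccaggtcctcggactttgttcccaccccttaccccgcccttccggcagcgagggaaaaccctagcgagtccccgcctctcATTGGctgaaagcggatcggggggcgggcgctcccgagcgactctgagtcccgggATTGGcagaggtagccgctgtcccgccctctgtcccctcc
Mvk: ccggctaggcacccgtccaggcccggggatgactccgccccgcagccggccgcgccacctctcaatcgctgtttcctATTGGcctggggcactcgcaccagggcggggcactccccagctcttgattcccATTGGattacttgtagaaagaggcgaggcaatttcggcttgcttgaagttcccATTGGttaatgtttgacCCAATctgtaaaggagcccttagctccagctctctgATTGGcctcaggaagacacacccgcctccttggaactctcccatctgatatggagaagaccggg
Idi1: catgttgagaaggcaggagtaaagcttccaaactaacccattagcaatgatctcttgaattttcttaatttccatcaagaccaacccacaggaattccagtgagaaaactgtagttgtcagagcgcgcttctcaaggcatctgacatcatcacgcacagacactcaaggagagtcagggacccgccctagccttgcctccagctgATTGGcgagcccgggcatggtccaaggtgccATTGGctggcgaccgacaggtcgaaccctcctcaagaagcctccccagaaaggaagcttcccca
Msmo1: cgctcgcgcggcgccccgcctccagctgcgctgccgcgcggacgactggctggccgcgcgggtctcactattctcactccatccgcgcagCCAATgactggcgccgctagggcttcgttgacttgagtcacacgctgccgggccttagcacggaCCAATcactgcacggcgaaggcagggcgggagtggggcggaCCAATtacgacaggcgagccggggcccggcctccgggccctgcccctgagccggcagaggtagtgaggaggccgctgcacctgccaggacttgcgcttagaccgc
Sc5d: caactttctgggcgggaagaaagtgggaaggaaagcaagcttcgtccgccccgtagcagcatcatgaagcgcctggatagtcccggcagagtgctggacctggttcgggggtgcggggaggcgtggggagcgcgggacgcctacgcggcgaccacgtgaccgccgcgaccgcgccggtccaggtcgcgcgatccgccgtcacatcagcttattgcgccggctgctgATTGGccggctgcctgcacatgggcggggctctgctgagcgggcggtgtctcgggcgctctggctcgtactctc
Insig2: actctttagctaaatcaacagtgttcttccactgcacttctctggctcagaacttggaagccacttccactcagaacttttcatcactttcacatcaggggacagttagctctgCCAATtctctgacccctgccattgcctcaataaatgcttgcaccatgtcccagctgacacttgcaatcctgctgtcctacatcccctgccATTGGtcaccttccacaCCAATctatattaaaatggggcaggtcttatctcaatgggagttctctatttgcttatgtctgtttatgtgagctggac
Abcg5: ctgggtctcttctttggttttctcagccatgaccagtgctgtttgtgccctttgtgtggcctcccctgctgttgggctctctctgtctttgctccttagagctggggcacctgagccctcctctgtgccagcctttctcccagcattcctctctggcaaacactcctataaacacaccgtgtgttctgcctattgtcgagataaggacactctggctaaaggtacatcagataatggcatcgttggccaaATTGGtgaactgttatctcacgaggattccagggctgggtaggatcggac

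The sterol element core stood in 1 of these windows, at base -137 from the start of Hmgcs1. Of the 29 measured members, 23 had a window in the table, and the 6 others were Fdft1, Fdps, Npc1, Scarb1, Sqle and Stard4. The core was present in 1 of the 23 (4.35%), against 1.44% of the 27025 genes with a window (1.24% of 32851 windows), searched on both strands together with its reverse complement GTGGNGTGA. A CCAAT box was present in 21 of the 23 (91.3%), against 41.1% of all genes with a window (37.4% of windows). The Hmgcs1 window held 4 copies of it, that of Mvk 5, those of Msmo1 and Insig2 3 each, that of Idi1 2, and those of Sc5d and Abcg5 1 each. A GC box, GGGCGG or CCGCCC, stood in 18 of the 23 (78.3%), against 38.2% of genes (35.7% of windows). The E-box CACGTG was found in 6 members (26.1%), against 8.09% of genes (7.15% of windows), and of the windows printed only that of Sc5d held one. Each motif was searched on its own, so letters shared with another motif count for both. The windows of Abcg5 and Abcg8, neighbours on chromosome 17 that are read in opposite directions, overlap by 209 bases. A match describes the letters of a window and does not show that a factor binds there.

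Values below are on a log2 scale, as deposited after RMA, a method that corrects background, normalizes arrays to a common distribution and sums the probes of a set. The deposited arrays did not fully share 1 distribution: their upper quartiles lay between 3.73 and 4.29. A difference of 1 is a 2-fold change. Levels are compared between groups for the same probe set, not between genes. Differences were tested with limma over all 45037 probe sets that are not controls, separately in each experiment, and were called at a Benjamini-Hochberg adjusted p under 0.05. Array medians lay between 2.418 and 2.59, and the closest pair of arrays correlated at 0.994 over probe sets, so no pair held identical values. In every group 1 array stood apart from its fellows: once group means were taken off, a leading component with 27.6% of the variance separated these 12 from the rest. The mean of the 18 enzymes in these 12 arrays differed from that of the other arrays of their groups in both directions, from -0.79 with 100 ppb in water on AIN-76A to 0.97 after dexamethasone, and was lower in 7 of 12 groups. Their upper quartile over all probe sets was lower in every group, with differences of -0.16 to -0.42. Results without them are given for several of the comparisons, not for all. The 8 hepatocyte markers had a mean between 12.88 and 13.2 in every array.

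**Figure D1:**
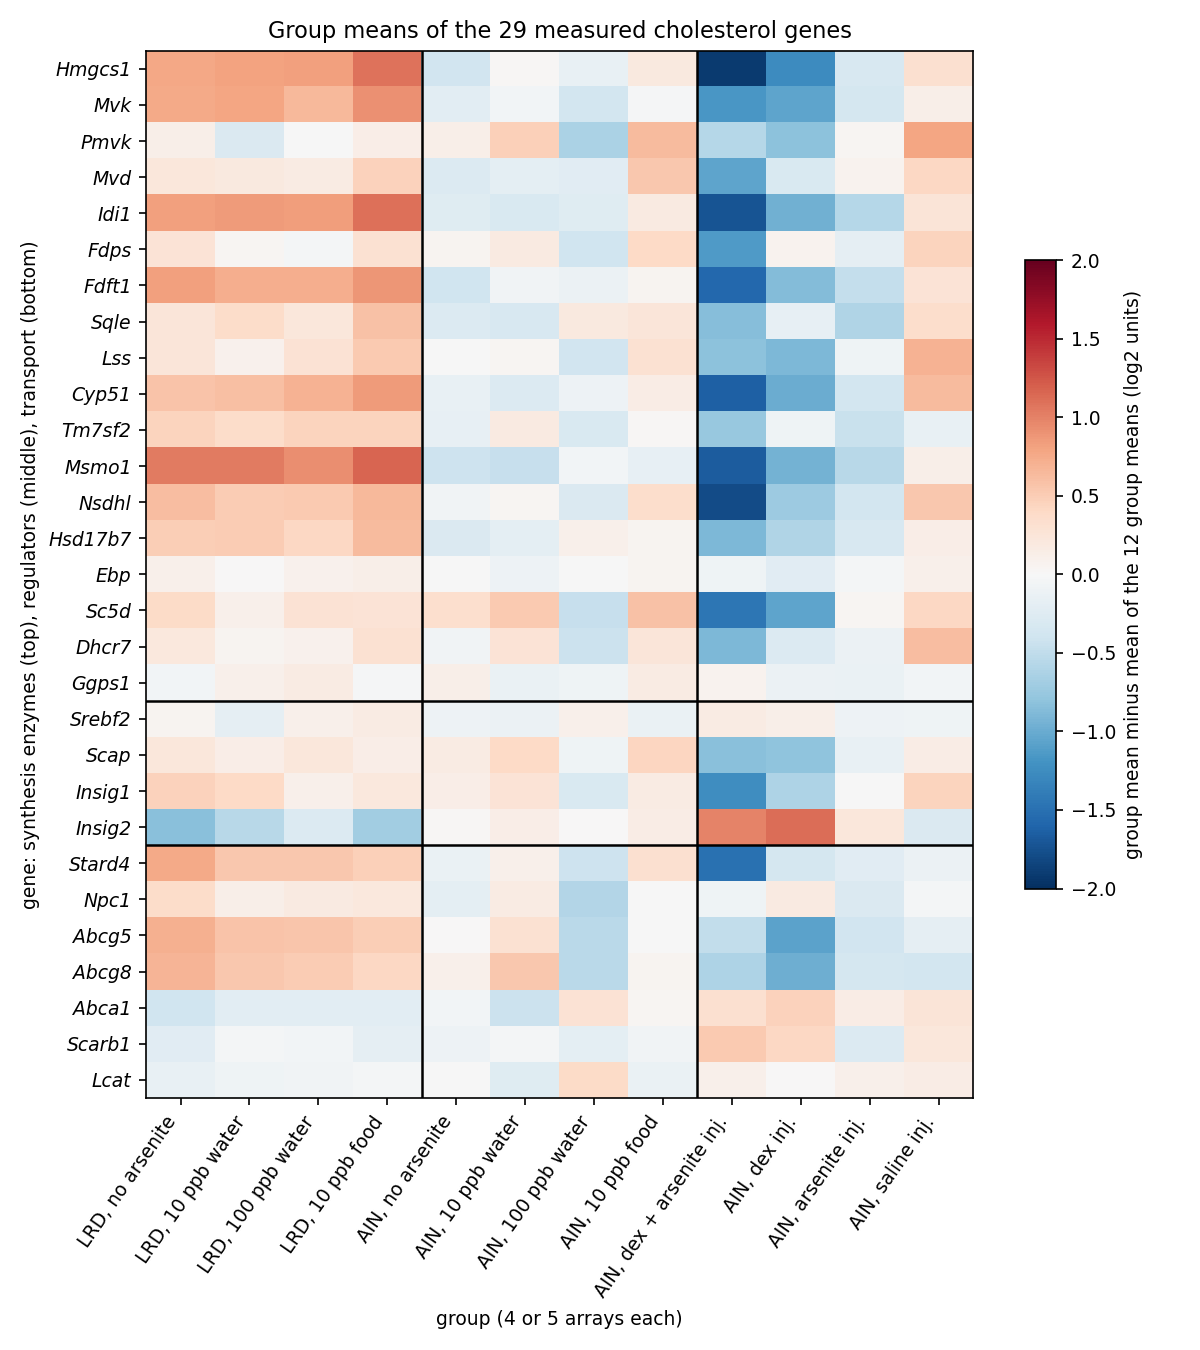
Mean of each gene in each of the 12 groups, as the difference in log2 units from the mean of the gene's 12 group means (red higher, blue lower); rows are enzymes, regulators and transport genes from top to bottom. Across the 18 enzymes the highest mean was in LRD-5001 mice with 10 ppb arsenite in food for 11, and the lowest in mice given dexamethasone and arsenite for 14.

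The diet comparison asked how the liver transcriptome differs between mice on LRD-5001 and on AIN-76A, with and without added arsenite. Averaged over the 4 exposure levels, 13 of the 29 members were called, against 4.26% of all probe sets. Members stand for their brightest probe sets, and among the 22518 probe sets above the median level 9.59% and 14 of the members were called. Of the 13 members called in the fit of all probe sets, 12 were higher on LRD-5001 (2.67% of all probe sets were called higher) and Insig2 was lower (1.59% were called lower). The median difference was 0.30 over the members and -0.011 over all probe sets. Of the 18 enzymes 9 were higher, 9 did not pass and none was lower, with a median of 0.44. Of the 4 regulators 1 was lower and 3 did not pass, and of the 7 transport genes 3 were higher and 4 did not pass. In whole liver, fewer cells of a type and less RNA per cell cannot be told apart.

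Hmgcs1 separated the diets in every liver, and Msmo1 and Idi1 in all but 1. Msmo1, which oxidises the methyl groups at carbon 4 of the sterol ring, had a lowest, median and highest value of 10.35, 10.73 and 11.11 in the 20 LRD-5001 livers, against 8.56, 9.39 and 10.60 in the 19 AIN-76A livers. All but 1 of the AIN-76A livers lay below every LRD-5001 liver, and the exception, at 10.60, had received 100 ppb in water. The difference was 1.32 (SE 0.11, 95% interval 1.08 to 1.55), a 2.49-fold higher level on LRD-5001 (limma, adjusted p = 2.71e-10). Hmgcs1, which makes the HMG-CoA from which mevalonate is formed, had 10.82, 11.21 and 11.70 in LRD-5001 livers, against 9.31, 10.37 and 10.68 in AIN-76A livers. The diets did not overlap for Hmgcs1, as for 25 probe sets on the array (0.0555%) with every LRD-5001 liver above every AIN-76A liver. Its difference was 0.95 (SE 0.09, 1.93-fold, adjusted p = 1.13e-09), and 3 of its 4 other probe sets were called too, at 0.85 to 0.99. The exception was a dim set with a mean of 1.86. The only other probe set of Msmo1, at a mean of 1.93, was also below the median probe set of 2.46 and showed no difference (0.01, SE 0.05).

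Mvk, Idi1 and Fdft1, from the stretch between mevalonate and squalene, were also higher on LRD-5001. Mvk, the mevalonate kinase, had 6.36, 6.88 and 7.39 as its lowest, median and highest value on LRD-5001, against 5.13, 5.94 and 6.75 on AIN-76A. Of the 19 AIN-76A livers 16 were below every LRD-5001 liver, and the difference was 0.94 (SE 0.11, 1.92-fold, limma adjusted p = 1.21e-07). Idi1, which isomerises isopentenyl diphosphate, had 9.20, 9.58 and 10.10 on LRD-5001, against 7.68, 8.49 and 9.30 on AIN-76A. Here 18 of 19 AIN-76A livers were below all LRD-5001 livers, with a difference of 1.06 (SE 0.13, 2.08-fold, adjusted p = 3.12e-07). Fdft1, the squalene synthase, had 9.24, 9.62 and 10.17 on LRD-5001, against 7.98, 8.81 and 9.72 on AIN-76A. For this gene 17 of 19 were below, and the difference was 0.92 (SE 0.11, 1.89-fold, adjusted p = 6.01e-07).

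Of the enzymes after lanosterol, Cyp51 (lanosterol demethylase), Tm7sf2 (a sterol reductase), Nsdhl and Hsd17b7 (which with Msmo1 remove the methyl groups at carbon 4) were higher on LRD-5001. Hsd17b7 had 7.89, 8.37 and 8.87 on LRD-5001, against 6.97, 7.89 and 8.36 on AIN-76A (difference 0.59, SE 0.09, adjusted p = 4.61e-05). Nsdhl had 9.21, 9.53 and 9.79 on LRD-5001, against 7.73, 9.04 and 9.59 on AIN-76A (0.56, SE 0.09, adjusted p = 4.62e-05). Tm7sf2 had 8.61, 8.96 and 9.45 on LRD-5001, against 7.81, 8.53 and 9.15 on AIN-76A (0.49, SE 0.08, adjusted p = 0.00011). These ranges overlapped: 9, 12 and 11 of the 19 AIN-76A livers lay below all LRD-5001 livers for Hsd17b7, Nsdhl and Tm7sf2. Cyp51 differed by 0.77 (SE 0.13, adjusted p = 0.000186).

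The other 9 enzymes did not pass. Sqle, the squalene epoxidase, differed by 0.39 (SE 0.16, adjusted p = 0.229) and Lss, the lanosterol synthase, by 0.30 (SE 0.13, adjusted p = 0.259). Sc5d, the sterol desaturase of the late pathway, differed by 0.02, with a 95% interval of -0.18 to 0.22 that leaves out the difference of Msmo1. Fdps, which makes farnesyl diphosphate, differed by 0.09 (interval -0.14 to 0.32), and Ggps1, which makes the geranylgeranyl diphosphate of the non-sterol branch, by 0.03 (interval -0.18 to 0.24). Dhcr7, the last reductase, differed by 0.17, Mvd by 0.30, Ebp by 0.10 and Pmvk by -0.17.

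Among the regulators only Insig2 was called, and it ran opposite to the enzymes. Insig2 encodes an anchor that keeps SCAP in the endoplasmic reticulum. It had 8.65, 9.25 and 9.92 in LRD-5001 livers, against 9.01, 10.02 and 10.68 in AIN-76A livers, so that 11 of the 19 AIN-76A livers lay above every LRD-5001 liver. The difference was -0.67 (SE 0.11, a 1.59-fold lower level on LRD-5001, limma adjusted p = 0.000168), and both of its other probe sets were called lower, at -0.46 and -0.67. Its relative Insig1 differed by 0.23 (SE 0.14, adjusted p = 0.468), Srebf2 by 0.10 (SE 0.09) and Scap by -0.05 (SE 0.10).

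Of the transport genes, Abcg5 and Abcg8, which together form the biliary sterol pump, and Stard4 were higher on LRD-5001. Abcg5 had 7.14, 7.60 and 7.80 on LRD-5001, against 5.41, 7.02 and 7.67 on AIN-76A. The LRD-5001 livers spanned a narrow range near the top of the wider AIN-76A range, and the difference was 0.64 (SE 0.11, 1.56-fold, adjusted p = 0.000143). Abcg8 had 5.71, 6.31 and 6.90 on LRD-5001, against 4.55, 6.07 and 6.52 on AIN-76A (0.49, SE 0.13, adjusted p = 0.0206). Stard4, a carrier of cholesterol between membranes, had 7.80, 8.41 and 9.09 on LRD-5001, against 6.46, 7.91 and 8.66 on AIN-76A (0.61, SE 0.13, adjusted p = 0.00348). Npc1, which exports cholesterol from lysosomes, differed by 0.38 (SE 0.12) and missed the threshold (adjusted p = 0.081). Abca1, Lcat (which esterifies cholesterol on lipoproteins) and Scarb1 (the receptor that takes up HDL cholesterol) differed by -0.22, -0.09 and -0.02.

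**Figure D2:**
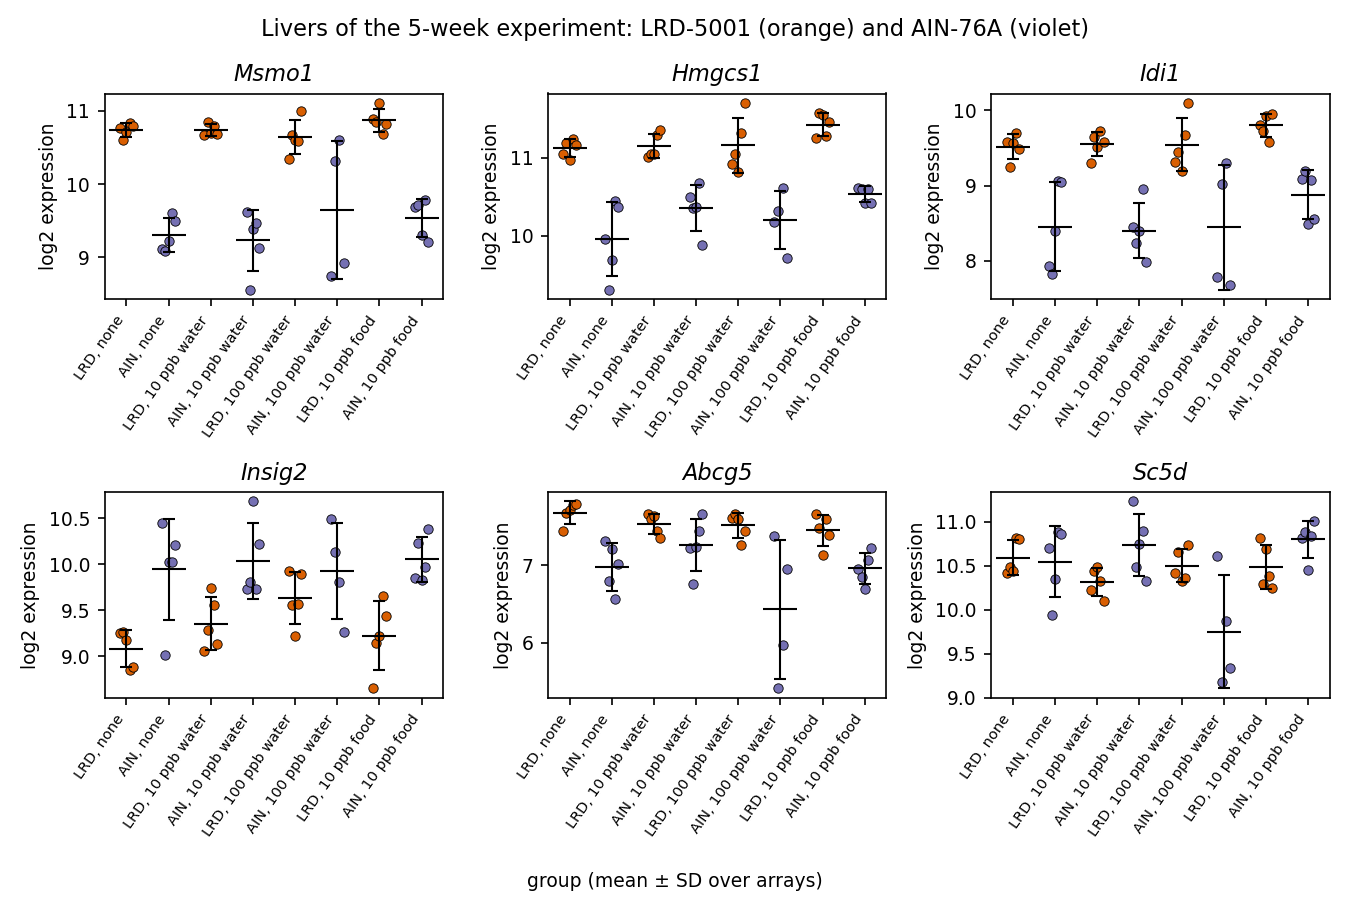
Log2 expression of 6 genes in each array of the 5-week experiment (points; bars give mean and SD), with LRD-5001 (orange) left of AIN-76A (violet) at each exposure. Msmo1, Hmgcs1 and Idi1 sit higher on LRD-5001, Insig2 sits lower, and the AIN-76A livers with 100 ppb arsenite in water spread widely for Msmo1 (8.75 to 10.60), Abcg5 (5.41 to 7.38) and Sc5d (9.18 to 10.61).

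Pathways that use or neighbour cholesterol differed in their own ways. Of 14 genes of bile acid synthesis and control, 6 were higher on LRD-5001, 1 was lower and 7 did not pass. They include Cyp7a1, the rate-limiting enzyme that turns cholesterol into bile acids (1.82, SE 0.31, adjusted p = 0.000118), the peroxisomal oxidase Acox2 (0.61, SE 0.05, adjusted p = 4.12e-10) and, in the other direction, the oxysterol hydroxylase Cyp39a1 (-0.88, SE 0.24, adjusted p = 0.0223). Of 13 genes of fatty acid synthesis, 10 were lower and none higher, with a median of -1.11. The elongases Elovl5 and Elovl6 differed by -1.57 (SE 0.14) and -1.68 (SE 0.19), and the pyruvate kinase Pklr by -2.11 (SE 0.23). None of 19 measured genes of a wider sterol list was called. Of 12 clock genes, 5 were higher and 3 lower. Of 6 Kupffer cell markers 2 were lower on LRD-5001, and of 5 neutrophil markers 2 (S100a8 by -1.25 and S100a9 by -1.30). The neutrophil marker mean lay between 2.40 and 3.16 in LRD-5001 livers, against 2.44 to 5.09 in AIN-76A livers. The part of clock and cell markers in the diet differences of the members was not tested.

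The same comparison in the 10 control livers rests on mice that had no added arsenite. Here 6 members were higher on LRD-5001 and none lower, against 0.568% of probe sets called (0.4% higher). For 10 members every LRD-5001 control lay above every AIN-76A control, against 1.11% of probe sets. Msmo1 read 10.76, 10.60, 10.71, 10.84 and 10.79 in the LRD-5001 controls B, C, D, E and F, against 9.11, 9.09, 9.22, 9.60 and 9.50 in the AIN-76A controls B, C, D, E and F. The highest AIN-76A control, 9.60, lay about 1 log2 unit under the lowest LRD-5001 control, 10.60, and the groups gave a difference of 1.43 (SE 0.22, 2.7-fold, adjusted p = 0.000326). Hmgcs1 read 11.05, 11.19, 10.97, 11.24 and 11.16 in LRD-5001 controls, against 9.96, 9.31, 9.69, 10.45 and 10.37 in AIN-76A controls (1.17, SE 0.17, 2.24-fold, adjusted p = 0.000167). Fdft1 read 9.70, 9.74, 9.55, 9.59 and 9.87 in LRD-5001 controls, against 8.67, 7.98, 8.29, 8.54 and 8.92 in AIN-76A controls (1.21, SE 0.22, 2.32-fold, adjusted p = 0.00283). For both genes AIN-76A control C was the lowest of the 10 livers, and the groups did not overlap.

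Mvk, Idi1 and Hsd17b7 passed by less. Mvk read 7.22, 6.58, 6.58, 7.09 and 6.94 in LRD-5001 controls, against 5.57, 5.83, 5.94, 6.29 and 5.94 in AIN-76A controls (0.97, SE 0.21, adjusted p = 0.017). Idi1 read 9.58, 9.25, 9.56, 9.70 and 9.48 in LRD-5001 controls, against 7.93, 7.82, 8.40, 9.06 and 9.05 in AIN-76A controls (1.06, SE 0.25, adjusted p = 0.0323). Hsd17b7 read 8.30, 8.64, 8.40, 8.11 and 8.46 in LRD-5001 controls, against 7.94, 6.97, 7.38, 7.82 and 7.89 in AIN-76A controls (0.78, SE 0.18, adjusted p = 0.0325). None of these groups overlapped. Each of the 3 genes lost its call when some single control was left out, and the count of 6 fell to 3 without LRD-5001 control B or F. Msmo1, Hmgcs1 and Fdft1 kept theirs without any 1 of the 10. Without the 12 arrays that stand apart the count was again 6, of which 3 were the same genes, and Insig2 was among them (-1.14, adjusted p = 0.00405, against -0.86, adjusted p = 0.079, with all arrays).

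Msmo1 and Hmgcs1 were called at each of the 4 exposure levels, 6.9% of the members, as were 40 probe sets (0.0888%) with 1 sign at all 4. This holds for their brightest probe sets. The second brightest of Hmgcs1 did not pass at 10 ppb in water (0.78, limma adjusted p = 0.197) or 10 ppb in food (0.77, adjusted p = 0.283). With 100 ppb in water the call of Msmo1 was lost without AIN-76A array A (0.69, limma adjusted p = 0.0849) or D (0.75, adjusted p = 0.115), without LRD-5001 array F (0.90, adjusted p = 0.0586), without the 12 arrays apart (0.76, adjusted p = 0.0785) and with the compared groups alone, where Hmgcs1 lost its call too (adjusted p = 0.305 and 0.114). Whatever the call, 15 members were higher on LRD-5001 at all 4 levels and Insig2 was lower, against 20.7% of probe sets with 1 sign throughout. At 10 ppb in water, 3 members were called (0.344% of probe sets): Msmo1 at 1.51, Idi1 at 1.15 and Hmgcs1 at 0.79. Without AIN-76A array C, D or F, or LRD-5001 array C or E, of that exposure 1 remained, Msmo1. Idi1 also lost this call without the 12 arrays apart (1.1, limma adjusted p = 0.0527). In mice with 10 ppb in food 3 were called (0.295% of probe sets): Msmo1 at 1.33, Mvk at 0.93 and Hmgcs1 at 0.89. Mvk lost this call without AIN-76A array D, E or F or LRD-5001 array B, C or D of that exposure, without the 12 arrays apart (0.82, limma adjusted p = 0.193), with the replicate block (adjusted p = 0.0844) and with the compared groups alone (adjusted p = 0.0505). With 100 ppb in water 9 were called (2.05% of probe sets), all higher on LRD-5001 (1.43% of probe sets), at 0.74 to 1.10. These 9 include Abcg5 (1.09, adjusted p = 0.00619), Abcg8 (1.04, adjusted p = 0.0336) and Sc5d (0.75, adjusted p = 0.0461). Sc5d lost this call with quantile normalization (0.68, limma adjusted p = 0.061) and the replicate block (0.71, adjusted p = 0.094). It also lost it without the 12 arrays apart (0.66, adjusted p = 0.0797), without AIN-76A array B, C or D, and without any 1 LRD-5001 array. Abcg8 lost its call with quantile normalization (0.86, adjusted p = 0.0689) and the replicate block (0.94, adjusted p = 0.0803). Leaving out AIN-76A array B or C, or LRD-5001 array A, B or F, also removed it.

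The 100 ppb count rests on a group of 4 AIN-76A livers that disagree with each other. Msmo1 read 8.75, 10.31, 10.60 and 8.93 in its arrays A, B, C and D, and Cyp51 read 6.58, 7.95, 8.52 and 6.30, so B and C were high and A and D low. Abcg5 read 7.38, 5.41, 5.97 and 6.96, and Abcg8 read 6.26, 4.64, 4.55 and 5.67, the other way round. The neutrophil marker mean read 2.61, 5.09, 4.83 and 3.92 in the same arrays, and the mean of the fatty acid genes 10.29, 7.81, 8.00 and 9.08. Livers B and C therefore had high values of Msmo1 and Cyp51 and of neutrophil markers, and low values of the pump and of fatty acid genes. The part of the neutrophil markers in the members' values was not tested. Of the 9 calls, 4 were left without AIN-76A array B or D, 5 without LRD-5001 array F or without the 12 arrays apart, and 0 when these groups were fitted without the other 6.

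Enzyme values were tighter on LRD-5001 than on AIN-76A in 3 of the 4 exposure levels. The median SD over the 18 enzymes was 0.20 in LRD-5001 controls, against 0.43 in AIN-76A controls, and 15 enzymes varied more on AIN-76A. At 10 ppb in water it was 0.21 on LRD-5001, against 0.35 on AIN-76A, and with 100 ppb in water 0.32, against 0.66. In the food groups the order turned: 0.26 on LRD-5001, against 0.22 on AIN-76A, with 13 enzymes varying more on LRD-5001. The mean of all 18 enzymes was 8.63 ± 0.11, 8.56 ± 0.08, 8.59 ± 0.25 and 8.76 ± 0.20 on LRD-5001 for no added arsenite, 10 ppb in water, 100 ppb in water and 10 ppb in food (SD, n = 5 each). On AIN-76A it was 8.06 ± 0.33, 8.17 ± 0.21, 7.97 ± 0.51 and 8.40 ± 0.09 in the same order (SD, n = 5, and n = 4 for 100 ppb). The spread was described, not tested.

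No member was called after 5 weeks of arsenite on either diet. The 6 exposures against their own controls called 0 members, and 0 probe sets except for 4 (0.00888%) with 100 ppb in water on AIN-76A. At an unadjusted p under 0.05 the members numbered 2, 6 and 3 for 10 ppb in water, 100 ppb in water and 10 ppb in food on AIN-76A, where 4.84%, 8.87% and 3.63% of probe sets were below it. On LRD-5001 they numbered 0, 1 and 0 in the same order, where 2.34%, 2.34% and 2.29% were below it. The 95% intervals of members, which are not adjusted for the number of probe sets, reached at most 0.71 to either side of the difference. Larger differences also went uncalled, such as -0.80 for Sc5d with 100 ppb in water on AIN-76A (limma adjusted p = 0.137), so changes of this size could go unseen. No test of whether the arsenite difference depends on diet called a member. The members with an unadjusted p under 0.05 in it numbered 1 for 10 ppb in water, 1 for 100 ppb in water and 0 for food, where 4.14%, 6.12% and 2.5% of probe sets were below it and 0 were called. Without the 12 arrays apart, 26 probe sets were called for 100 ppb in water. With all arrays, the member closest to the threshold was Sc5d at 100 ppb (0.71, limma adjusted p = 0.757).

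The smallest p-values were for the following members. With 100 ppb in water on AIN-76A, Sc5d read 10.61, 9.18, 9.87 and 9.34 in exposed livers A, B, C and D, against 10.70, 9.94, 10.35, 10.88 and 10.86 in the AIN-76A controls B to F. Liver A alone lay within the control range. Its difference was -0.80 (SE 0.21, limma adjusted p = 0.137), that of Pmvk -0.74 (SE 0.27, adjusted p = 0.373) and that of Abcg5 -0.55 (SE 0.23, adjusted p = 0.437). Without exposed array A, the exposed liver with the highest Sc5d and Abcg5, both passed (Sc5d -1.08, adjusted p = 0.00131, and Abcg5 -0.87, adjusted p = 0.0263). Without AIN-76A control C, the control with the lowest Sc5d, Sc5d passed (-0.95, adjusted p = 0.0417). Leaving out the highest exposed or the lowest control liver enlarges a negative difference by construction, so these passes are no support for it. Without the 12 arrays apart Abcg8 passed (-1.02, adjusted p = 0.049). Without the 12, 1.47% of probe sets were called, while the shares without array A or control C alone are not given here. For food on AIN-76A the differences were 0.57 for Hmgcs1 (SE 0.17), 0.81 for Mvd (SE 0.33) and 0.42 for Nsdhl (SE 0.18), each with adjusted p = 1. For 10 ppb in water on AIN-76A they were 0.40 for Hmgcs1, 0.34 for Tm7sf2 and 0.44 for Abcg8 (adjusted p = 0.993 each). With 100 ppb in water on LRD-5001, Insig2 differed by 0.55 (SE 0.23, adjusted p = 1), Scarb1 by 0.17 and Insig1 by -0.37. With 10 ppb in water on LRD-5001 the closest were Scarb1 at 0.18, Pmvk at -0.40 and Sc5d at -0.28. For food on LRD-5001 they were Hmgcs1 at 0.30, Idi1 at 0.29 and Lss at 0.29. The 5 exposed livers for Hmgcs1, at 11.25 to 11.57, all lay above the controls, at 10.97 to 11.24, as 0.269% of probe sets did.

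The 8-hour experiment compared dexamethasone, arsenite and their combination with saline, and the 3 comparisons share the saline livers. After dexamethasone with arsenite 7 members were called, 6 lower and Insig2 higher, against 0.926% of probe sets (0.424% lower, 0.502% higher). After dexamethasone alone 3 were called, Sc5d and Scap lower and Insig2 higher, against 1.74% of probe sets (0.753% lower, 0.984% higher). After arsenite alone no member and no probe set was called. The median difference of the 29 members was -1.29 after both, -0.73 after dexamethasone and -0.43 after arsenite, while that of all probe sets was -0.0084, -0.015 and 0.0014. Of the 18 enzymes 17, 17 and 18 were below 0, although most did not pass on their own.

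Sc5d had the smallest p of any member in both comparisons with dexamethasone. It read 8.80, 8.30, 9.12, 9.06 and 8.58 in livers A, C, D, E and F after both agents, and 9.26, 9.47, 8.79, 8.94 and 9.31 in livers A, C, D, E and F after dexamethasone. It read 10.20, 9.83, 10.08, 10.50 and 10.65 in livers A, B, D, E and F after arsenite, against 10.96, 10.34, 10.33, 10.62 and 10.89 in livers A, B, C, E and F after saline. All 10 livers with dexamethasone lay below all 10 without it. The differences from saline were -1.86 after both (SE 0.19, 3.62-fold lower, limma adjusted p = 4.58e-05), -1.47 after dexamethasone (SE 0.19, 2.78-fold lower, adjusted p = 0.000229) and -0.38 after arsenite (SE 0.19, adjusted p = 1). The gene's other probe sets did not pass. The one with a mean of 8.26 differed by -1.13 after both (adjusted p = 0.511) and -0.30 after dexamethasone (adjusted p = 0.914), and the one with a mean of 4.99 by -0.97 and -0.45. They point the same way, but the size of the fall holds for the brightest probe set only.

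Insig2 was the only member called higher. It read 11.18, 11.11, 11.18, 10.63 and 10.42 after both agents and 11.38, 10.57, 10.93, 11.25 and 10.94 after dexamethasone. It read 9.93, 10.19, 10.02, 9.79 and 10.76 after arsenite, against 9.52, 10.02, 9.85, 9.73 and 8.97 after saline. The livers with dexamethasone lay above all saline livers, and arsenite liver F, at 10.76, lay among them. The differences were 1.29 after both (SE 0.22, 2.44-fold, adjusted p = 0.00461), 1.40 after dexamethasone (SE 0.22, 2.64-fold, adjusted p = 0.00127) and 0.52 after arsenite (SE 0.22, adjusted p = 1). Its other probe sets were called too, at 1.47 and 1.35 after both and 1.52 and 1.80 after dexamethasone.

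Scap, the partner that Insig2 holds in place, was lower after both dexamethasone treatments. It read 7.36, 6.91, 7.43, 7.05 and 7.16 after both agents and 7.04, 7.52, 7.37, 7.21 and 6.87 after dexamethasone. It read 7.45, 8.05, 8.44, 7.52 and 7.91 after arsenite, against 8.87, 7.96, 7.62, 8.03 and 8.34 after saline. Neither dexamethasone group overlapped with saline, and the differences were -0.98 (SE 0.21, adjusted p = 0.0267) after both and -0.96 (SE 0.21, adjusted p = 0.0195) after dexamethasone. Its other probe set, with a mean of 2.45, differed by 0.02 and 0.20 and did not pass. The call after dexamethasone was lost without dexamethasone liver A or F or saline liver A or F. Insig1 differed by -1.68 after both (SE 0.49, adjusted p = 0.134) and -1.06 after dexamethasone (SE 0.49, adjusted p = 0.412), and Srebf2 by 0.25 and 0.19.

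**Figure D3:**
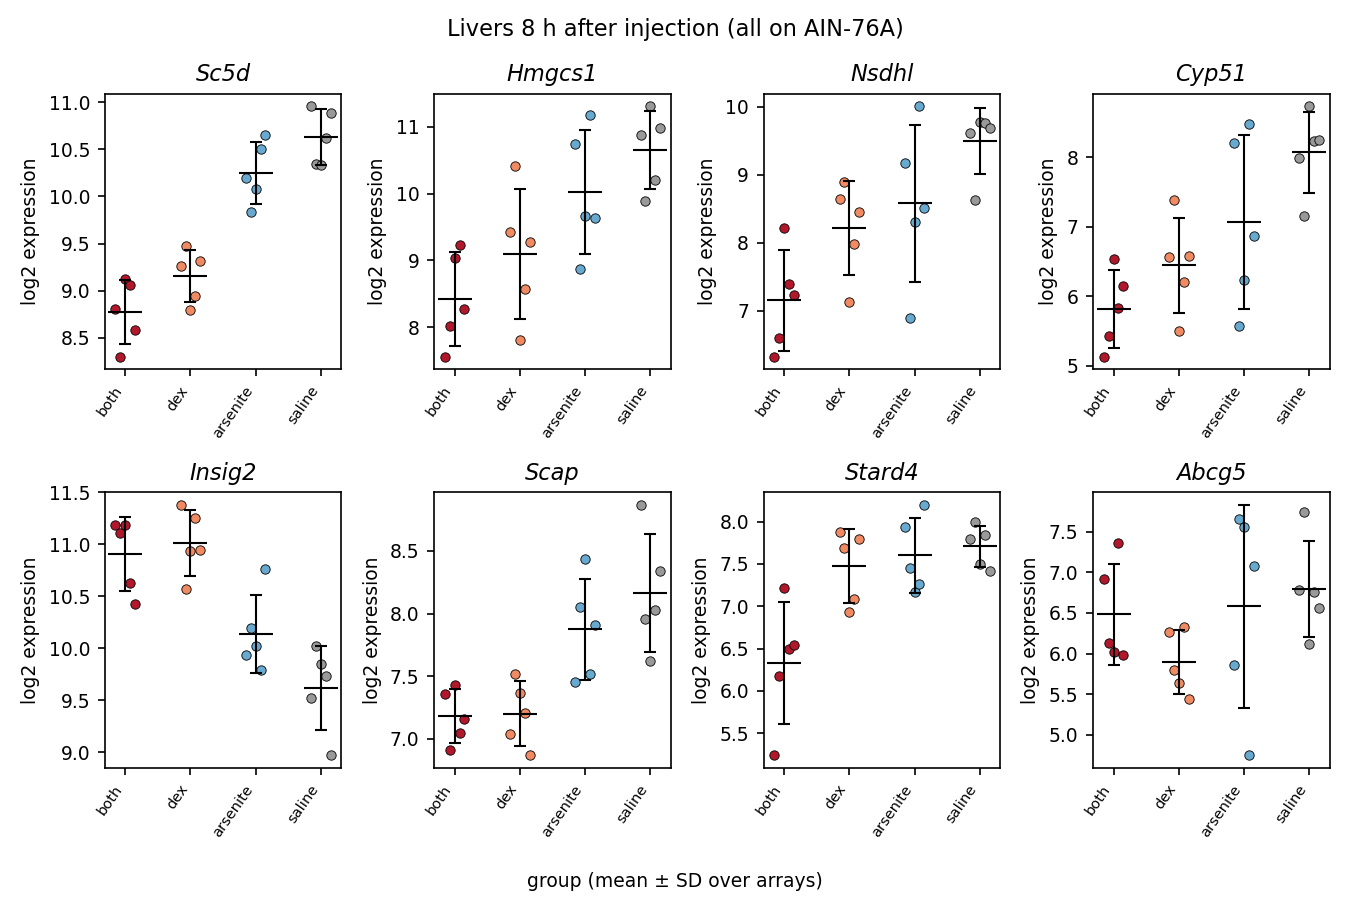
Log2 expression of 8 genes in each liver 8 h after injection (points; bars give mean and SD, 5 arrays a group), with both agents, dexamethasone, arsenite and saline from left to right. Sc5d and Scap sit lower and Insig2 higher in both dexamethasone groups than in saline livers, while Hmgcs1, Nsdhl and Cyp51 are lowest after both agents and spread widely after arsenite (Hmgcs1 8.87 to 11.18).

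Hmgcs1, Nsdhl, Cyp51 and Stard4 passed after both agents against saline and did not pass after dexamethasone against saline, although a dimmer probe set of Cyp51 did (-0.97, SE 0.17, limma adjusted p = 0.00422). No member passed in the direct comparison of both agents with dexamethasone. Hmgcs1 read 7.56, 8.01, 9.03, 9.23 and 8.27 after both and 9.42, 10.41, 7.80, 8.57 and 9.27 after dexamethasone. It read 10.74, 8.87, 9.67, 11.18 and 9.64 after arsenite, against 10.88, 9.89, 11.31, 10.21 and 10.98 after saline. The livers with both agents lay below all saline livers, while dexamethasone liver C and arsenite livers A and E reached the saline range. The difference after both was -2.24 (SE 0.47, 4.72-fold lower, limma adjusted p = 0.0248), and after dexamethasone -1.56 (SE 0.47, adjusted p = 0.121). Of its 4 other probe sets 3 were called after both, at -2.12 to -2.37.

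Nsdhl read 6.33, 6.60, 8.22, 7.39 and 7.23 after both agents, against 9.62, 8.63, 9.78, 9.76 and 9.68 after saline (-2.34, SE 0.47, 5.07-fold lower, adjusted p = 0.0167). Cyp51 read 5.13, 5.42, 6.54, 5.83 and 6.15 after both, against 7.99, 7.15, 8.74, 8.24 and 8.25 after saline (-2.26, SE 0.48, 4.8-fold lower, adjusted p = 0.0244). Stard4 read 5.24, 6.17, 7.22, 6.50 and 6.54 after both, against 7.79, 8.00, 7.50, 7.84 and 7.42 after saline (-1.38, SE 0.29, 2.6-fold lower, adjusted p = 0.0232). None of the 3 genes overlapped with saline, and liver A had the lowest value after both agents in each. After dexamethasone alone they differed by -1.27, -1.63 and -0.24 and did not pass. The 7 calls after both agents fell to 2, Sc5d and Insig2, without liver C of that group, to 3 without saline liver A or F, to 4 without saline liver E, and to 3 (Hmgcs1, Sc5d and Insig2) without the 12 arrays apart. Leaving out dexamethasone liver C, which had the highest Hmgcs1 of its group, gave 6 calls in place of 3 for dexamethasone. The shares of all probe sets called with a single liver left out are not given here.

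After both agents the 14 enzymes that did not pass lay between -1.98 (Idi1, SE 0.60, adjusted p = 0.159) and 0.13 (Ggps1). Fdft1, at -1.83 (SE 0.45), and Dhcr7, at -1.52 (SE 0.38), came closest, with adjusted p = 0.0614 and 0.0692. Msmo1 differed by -1.79 (SE 0.49, adjusted p = 0.102). After dexamethasone Pmvk (-1.60, SE 0.41) and Lss (-1.58, SE 0.41) came closest, with adjusted p = 0.0526 and 0.0569. For 10 members all livers with both agents lay below all saline livers and for 1 above, against 1.15% and 1.03% of probe sets. For dexamethasone the numbers were 3 below and 1 above, against 1.93% and 1.88%. The efflux genes did not pass: Abcg5 differed by -0.31 after both (SE 0.46) and -0.89 after dexamethasone (SE 0.46), Abcg8 by -0.26 and -0.61, and Abca1 by 0.04 and 0.18.

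**Figure D4:**
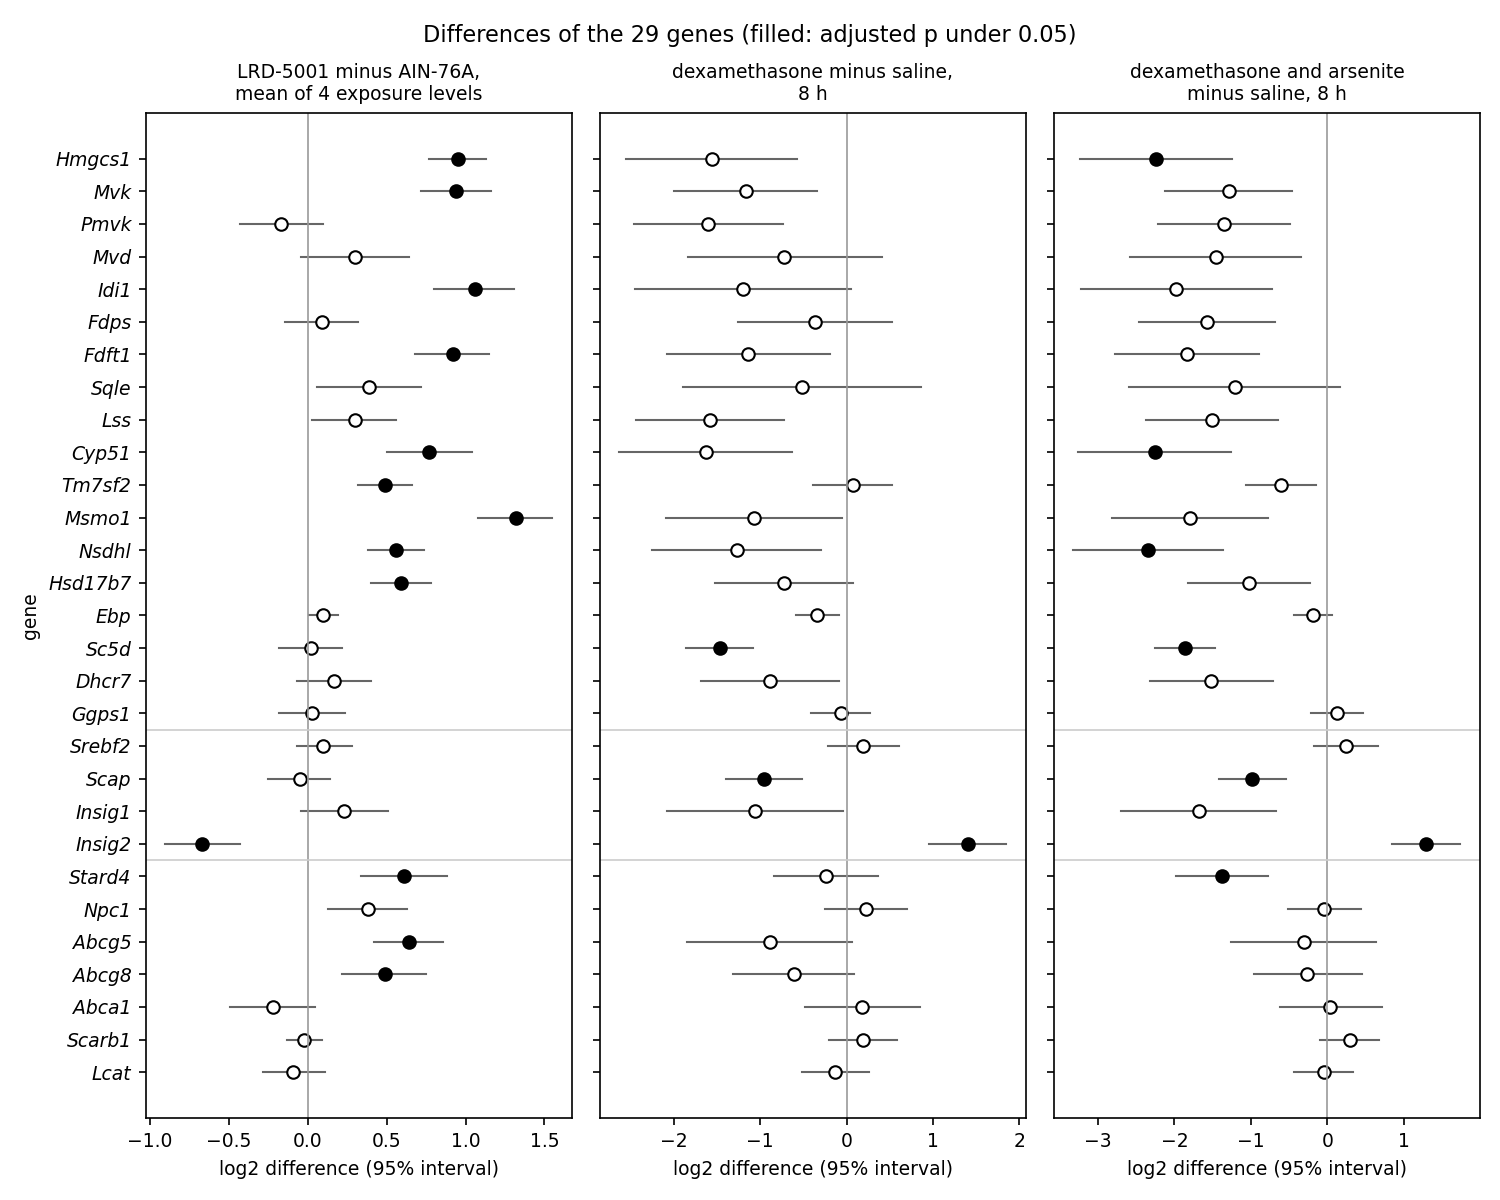
Log2 difference of each of the 29 genes with its 95% interval for LRD-5001 minus AIN-76A (left), dexamethasone minus saline (middle) and dexamethasone with arsenite minus saline (right); filled points passed at an adjusted p under 0.05. Enzymes lie mostly above 0 for diet and mostly below 0 for the injections, with Insig2 opposite in each (-0.67, 1.40 and 1.29), and intervals are wider for the injections.

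Arsenite alone gave the most uneven group. No member was called, and 3 had an unadjusted p under 0.05, where 1414 probe sets (3.14%) did: Scarb1 (-0.50), Insig2 (0.52) and Cyp51 (-1), each with a limma adjusted p of 1. Of the 29 members 27 were below 0, while 50.5% of all probe sets were above 0. The median SD of the enzymes was 0.85 after arsenite, 0.71 after dexamethasone and 0.69 after both, against 0.47 after saline. The mean of the 18 enzymes read 8.49, 6.89, 7.51, 8.88 and 7.83 in arsenite livers A, B, D, E and F, against 8.73, 7.96, 8.71, 8.40 and 8.79 in saline livers A, B, C, E and F. Liver A lay within the saline range and E above it, while B, D and F lay below every saline liver. As group means the enzymes had 7.08 ± 0.48 after both, 7.56 ± 0.57 after dexamethasone and 7.92 ± 0.79 after arsenite, against 8.52 ± 0.35 after saline (SD, n = 5 each).

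Set against arsenite alone, both agents gave 2 lower members (0.881% of probe sets were called): Sc5d (-1.48, SE 0.19, adjusted p = 0.000366) and Stard4 (-1.27, SE 0.29, adjusted p = 0.0395), with Scarb1 at 0.79 just short of the threshold (adjusted p = 0.0509). Stard4 lost its call without liver A, C or F of both agents, without arsenite liver A, B or F, and without the 12 arrays apart. Set against dexamethasone alone, both agents called no member and no probe set (1744, or 3.87%, had p under 0.05). The 4 members with such a p were all lower, led by Stard4 (-1.14, SE 0.29), Tm7sf2 (-0.68, SE 0.22) and Fdps (-1.20, SE 0.43), each with adjusted p = 0.999. The interaction of dexamethasone and arsenite called no member and no probe set, and 2 members had p under 0.05 (1560 probe sets, 3.46%): Stard4 (-1.03, SE 0.41) and Scarb1 (0.60, SE 0.26), both with adjusted p = 1. Insig2 followed at -0.63 (SE 0.31).

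Genes of the other lists passed in small numbers after the injections. After both agents 2 of 19 genes of the wider sterol list were lower, the lysosomal lipase Lipa (-1.25, SE 0.15, adjusted p = 0.000244) and the retinol dehydrogenase Rdh11 (-1.77, SE 0.35, adjusted p = 0.0156), and after dexamethasone Lipa alone (-1.20, SE 0.15, adjusted p = 0.000165). Of 14 bile acid genes, Cyp39a1 was higher after both (1.60, SE 0.32) and Hsd3b7 lower (-1, SE 0.22), and Cyp39a1 (2.26, SE 0.32) and Cyp27a1 (0.77, SE 0.16) were higher after dexamethasone. None of 13 fatty acid genes was called in either. Of 12 clock genes, Cry1 (1.30, SE 0.32, adjusted p = 0.0425) and Ciart (0.84, SE 0.21, adjusted p = 0.0447) were higher after dexamethasone, and none was called after both. No Kupffer cell or neutrophil marker was called, but their levels differed in range. The neutrophil marker mean lay between 2.39 and 5.52 after both, 2.34 and 2.53 after dexamethasone and 2.53 and 4.47 after arsenite, against 3.07 to 7.83 after saline. The Kupffer cell mean lay between 5.49 and 7.29 after both, 5.62 and 6.13 after dexamethasone and 5.68 and 7.25 after arsenite, against 5.77 to 8.64 after saline. Saline liver E had the highest neutrophil value, 7.83, and without it 4 members were called after both. The count fell further without saline liver A or F, whose neutrophil means were 3.13 and 3.07. The part of these markers in the members' differences was not tested.

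Within groups the enzymes varied together. Over the 59 arrays, after each group's mean was taken off, the 153 pairs of enzymes had a median Pearson's r of 0.58 (range -0.49 to 0.94), and 91 were above 0.5. The closest pair was Idi1 and Msmo1 (0.94). By their median r with the other enzymes, Hmgcs1 and Nsdhl (0.77 each) and Mvk (0.75) were most like the rest. Sc5d had 0.41, Tm7sf2 -0.01 and Ggps1 -0.15, so these enzymes were least like it. Among the regulators Insig1 had 0.31, Srebf2 0.24, Insig2 -0.11 and Scap -0.12. Stard4 had 0.37, while Abcg5 and Abcg8 had -0.48 and -0.43 with the enzymes and 0.77 with each other. These are descriptions: the arrays share a platform and a normalization, 1 array in each group stands apart, and the injected groups spread most.

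**Figure D5:**
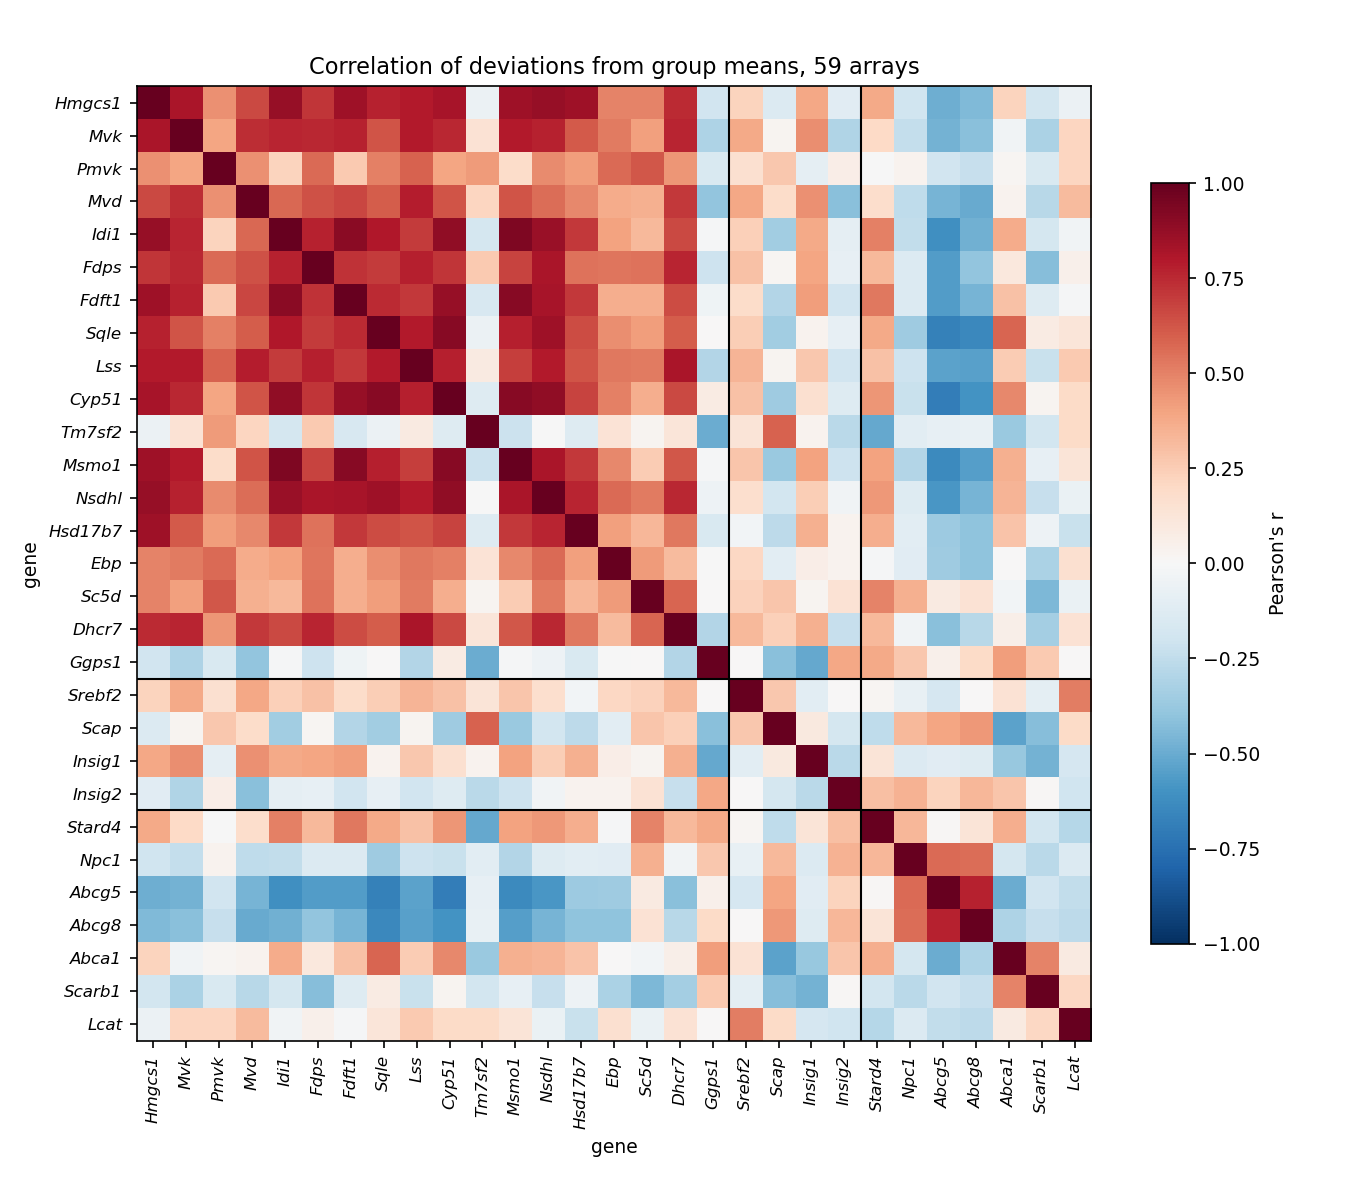
Pearson's r between each pair of the 29 genes over the 59 arrays after each group's mean was taken off (red positive, blue negative), in the order enzymes, regulators, transport genes. The enzymes form a red block (median r 0.58), from which Tm7sf2 and Ggps1 are missing, and Abcg5 and Abcg8 run against it (Abcg5 with Hmgcs1, -0.49).

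Across the 12 groups Hmgcs1, Msmo1 and Idi1 had their 4 highest means in the LRD-5001 groups and their lowest after both agents. Neighbours within LRD-5001 overlapped: Hmgcs1 averaged 11.15 ± 0.16 with 10 ppb in water, 11.16 ± 0.36 with 100 ppb in water and 11.42 ± 0.15 with 10 ppb in food (SD, n = 5 each). The span between the highest and the lowest group mean was 2.83 for Msmo1 and likewise for Idi1. It was 0.35 for Ebp, 0.34 for Srebf2 and 0.30 for Ggps1. For Pmvk, Dhcr7, Fdps and Lss the saline-injected group had the highest mean of all 12. Groups of the 2 experiments were fitted apart and differ in handling and duration, so levels across them are given as a description.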

How the data were processed

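Total liver RNA was hybridised to one-colour expression arrays, and the authors deposited 1 table of log2 values. That these are RMA values is known per the submitters' processing notes, and which program made them is not stated there. The table held 45101 probe sets on 59 arrays with values from 1.166 to 14.15, and the 64 control probe sets were left out. Array number, not read depth, limits precision. Symbols came from the platform's annotation: 34945 probe sets had 1 symbol and 932 several, and 34741 matched RefSeq. Groups came from sample titles.

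A model of group means was fitted (lmFit, contrasts.fit and eBayes of limma 3.58.1, under R 4.3.3) to the 39 arrays of the 5-week experiment and, apart from these, to the 20 of the 8-hour experiment, giving 20 contrasts. Tests were two-sided, with Benjamini-Hochberg adjustment over 45037 probe sets and a threshold of 0.05. The method was tested on simulated data with independent noise, in which only probe sets above the median level were changed. Of 100 changes of 1 log2 unit, 81% were recovered for the diets in controls and 74% for dexamethasone, with 10 and 6 false calls. The simulation held no arrays apart and no correlation between genes, so it does not cover these features of the data. Members and lists were chosen with earlier results of these data known, so no list was tested as a set. Members with the smallest p in a main contrast (up to 8) are given with their array values, or, where none was called, the first 3. Insig2, Abcg5, Abcg8 and Stard4 for the diets were added after their values were seen.

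Alternatives were quantile normalization, a filter on dim probe sets (mean above the median, 2.46), the second brightest probe set, the compared groups alone, the replicate letter as a block, the 12 arrays apart as a block or left out, and each array left out in turn. The labels do not say whether equal replicate letters pair the samples. Same-lettered arrays correlated at -0.47 to 0.43 in their deviations, and in no contrast was every pair over 0.1. With 3 to 5 pairs in a contrast, a weak pairing could be missed. No column of the table was left unused.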

Additional observations from a re-analysis of the deposited data

Results flagged for a closer look

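Within a group of 4 or 5 arrays, 1 array lay far from the others for 18 of 348 sets of a member and a group by Dixon's criterion, where 1 in 20, or 17.4, would be expected by chance. Of the 18 values 12 were the lowest and 6 the highest of their group, and 9 were in the arrays that stand apart. All are log2 values with the range of the other arrays beside them. Among the enzymes, Mvk was 5.79 in AIN-76A array F with 10 ppb in water (others 6.13 to 6.22), and Pmvk was 6.27 in LRD-5001 array A with 10 ppb in water (6.72 to 6.89). Mvd was 7.14 in dexamethasone array C (4.63 to 5.26). Nsdhl was 8.63 and Ebp 10.32 in saline array B (9.62 to 9.78 and 10.56 to 10.64). Dhcr7 was 9.20 in AIN-76A array A with 10 ppb in food (8.64 to 8.80), and Ggps1 was 2.84 in LRD-5001 array C with 10 ppb in food (3.65 to 3.91).

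Insig1 was 10.27 in LRD-5001 array F with 10 ppb in water (9.02 to 9.29) and 8.69 in AIN-76A control F (9.15 to 9.30). Stard4 was 7.80 in LRD-5001 array C with 10 ppb in food (8.36 to 8.50). Npc1 was 5.65 in LRD-5001 array F with 10 ppb in water (6.63 to 6.90) and 6.34 in dexamethasone array C (6.64 to 6.73). Abcg8 was 6.70 in LRD-5001 array E (6.19 to 6.31) and 6.08 in AIN-76A array C (6.41 to 6.45), both with 10 ppb in water. Abca1 was 8.09 in LRD-5001 control B (8.93 to 9.21), 8.63 in array E with dexamethasone and arsenite (9.66 to 9.90) and 10.19 in dexamethasone array A (9.44 to 9.63). Scarb1 was 8.70 in LRD-5001 control C (8.04 to 8.17).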

How the results depend on the processing

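The number of called members in the averaged diet comparison was 12 to 14, against 13, under the alternatives run, and Msmo1 lost its call with the second brightest probe set (0.01, limma adjusted p = 0.945). With dim probe sets filtered, the share of probe sets called was 1.35% for the diets in controls, 5.15% with 100 ppb in water, 4.15% after dexamethasone and 2.45% after both. Counts of called members in the smaller comparisons depended on the arrays used. For the diets in controls (6), the count was 2 with the second brightest probe set, 10 with a block for the arrays apart and 3 to 7 leaving out 1 array. At 10 ppb in water (3) these were 1, 5 and 1 to 3. The 1 with the second brightest probe set was another member, as Hmgcs1, Idi1 and Msmo1 all lost their call (limma adjusted p = 0.197, 0.132 and 0.729). With 100 ppb in water (9) the second brightest probe set gave 5, the compared groups alone 0, leaving out the 12 arrays apart 5, and leaving out 1 array 4 to 10. For food (3) the second brightest gave 0, and leaving out 1 array 2 to 3. For 100 ppb in water against its control on AIN-76A (0), leaving out the 12 gave 1, and leaving out 1 array 0 to 2. For dexamethasone (3) the dim filter, the compared groups alone and the arrays apart as a block each gave 5, the second brightest probe set 1, and leaving out 1 array 2 to 6. For both agents (7) the second brightest gave 4, leaving out the 12 gave 3, and leaving out 1 array 2 to 9. For both agents against arsenite (2) the second brightest, the compared groups alone, leaving out the 12 and the replicate block each gave 1, the arrays apart as a block 4, and leaving out 1 array 1 to 3. With the second brightest probe set Sc5d and Stard4 both lost this call (limma adjusted p = 0.341 and 0.183), so the 1 was another member. The second brightest setting replaced the probe set of the 18 genes with more than 1. The causes of these changes were not tested. Counts with 1 array left out lack the share of all probe sets called in the same fit, so a change in the members cannot be told from a change over all probe sets.

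Signs turned only with the second probe set: Msmo1 to -0.07 in controls and to -0.07 with 10 ppb in food, and Scap to 0.20 after dexamethasone and 0.02 after both agents. These second probe sets were dim, with a mean over all arrays of 1.93 for Msmo1 and 2.45 for Scap, against 9.71 and 8.01 for the brightest. No pairing by letter was assumed in the main fit, and with the replicate block the counts were 13 for the averaged diets, 5 in controls, 3, 6 and 2 with 10 ppb in water, 100 ppb in water and 10 ppb in food, 4 after dexamethasone and 7 after both. Over all probe sets, a block for the arrays apart moved counts by more than 1.5 times (3053, against 1919, for the averaged diets; 434, against 256, in controls; 373, against 155, with 10 ppb in water; 2043, against 924, with 100 ppb in water; 668, against 417, after both; 620, against 397, for both against arsenite). With 100 ppb in water on AIN-76A, where 4 were called, it gave 83, quantile normalization 25, the replicate block 1, the compared groups alone 0 and leaving out the 12 gave 661. Leaving out the 12 also gave 2178 for the diets with 100 ppb in water, where the compared groups alone gave 38 and the replicate block 549. The compared groups alone gave 165 in controls, 221 after both and 119 for both against arsenite. Groups of 4 or 5 arrays limit these tests: an interval of 0.71 to either side was the widest in the single 5-week comparisons, and 1.38 in those of the injections.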
